A study of Mus musculus with 19 samples.

Results

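The leptin receptor and the genes through which it signals were measured in cultured pancreatic islets of C57BL/6J (B6) and C57BLKS/J (BLKS) mice. The members are 7 genes of the 29742 gene names on the array, namely Leprotl1, Leprot, Lepr, Jak2, Stat3, Socs3 and Ptpn1, and they were found by the gene name that the array files give each probe. These names hold 13 probes, 3 for Leprotl1, 2 each for Lepr, Jak2, Stat3 and Ptpn1, and 1 each for Leprot and Socs3, where the Leprot probe is listed under the older symbol Obrgrp. Of the 13 probes, 10 passed a filter on dim signal and were tested, each in all 19 mice well above background. The other 3, both Lepr probes and 1 Jak2 probe, were well above background in 1 of 19 mice and were not tested.

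The leptin receptor, encoded by Lepr, is a cytokine receptor without kinase activity of its own that relies on the bound Janus kinase JAK2. On leptin binding JAK2 phosphorylates the receptor, STAT3 docks there, is phosphorylated in turn and moves to the nucleus, where it activates genes that include Socs3, whose product feeds back to block the receptor and JAK2. Ptpn1 encodes the phosphatase PTP1B, which removes phosphate from JAK2. Leprot shares its promoter region with Lepr but encodes a separate small membrane protein, and Leprotl1 encodes a close relative of it. Both have been described as regulators of how much leptin receptor and growth hormone receptor reaches the cell surface, and neither binds leptin. Mice that lack leptin or its receptor become severely diabetic on the BLKS background and much less so on B6, which makes these genes of interest in a comparison of the strains. The mice used here were of the non-obese strains, with no mutation of leptin or its receptor in their labels.

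Islets came from non-obese male mice aged 12 weeks, were kept apart by mouse and were held for 48 h in medium with 11 mM glucose and then for 24 h in either 5 mM glucose (low glucose) or 20 mM glucose (high glucose). There were 5 B6 and 5 BLKS mice in low glucose, and 5 B6 and 4 BLKS mice in high glucose. Portions of 200 ng RNA of every mouse were labelled with Cy3 and, separately, with Cy5, and hybridised to 20 Agilent 2-colour mouse arrays. Of the mice, 9 B6 and 9 BLKS animals matched by number and glucose level shared 2 arrays with the dyes exchanged, and are called array pairs below. The remaining arrays, scanned later, held B6 low glucose mouse 1 once more, together with B6 high glucose mouse 5.

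The markers of the islet hormone cells, Ins1, Ins2, Iapp, Slc2a2, Nkx6-1, Gcg, Irx2, Sst, Hhex, Ppy and Pyy, were well above background in all 19 mice. Whole islets were measured, so that fewer cells of a type and less RNA per cell cannot be told apart in any value given here. On a scale set by 106 probes that separated the strains in high glucose, where 0 is the mean of B6 and 1 that of BLKS, 2 of the low glucose libraries went against their labels. At 0.99 the library labelled B6 low glucose 4 lay with BLKS. The library labelled BLKS low glucose 5, at -0.01, lay with B6. The range of the remaining mice was -0.04 to 0.05 for B6 and 0.93 to 1.01 for BLKS. None of the 106 probes is a member probe. Calls that use low glucose are therefore given over all mice, and without these 2 libraries for the named results and wherever a call was lost or gained. The fit without them holds 17 mice, 4 in each low glucose group.

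Levels are log2 of the dye-normalised signal, averaged over both dyes of a mouse, and differences are on the log2 scale. A difference was called when its Benjamini-Hochberg adjusted p, from limma fitted to all 29330 probes that passed the filter, was below 0.05. Because the signal still holds the background of the glass, a difference of a dim probe is smaller than that of the RNA, and the level of one probe says nothing about that of another. The strain and glucose comparisons share groups, BLKS in high glucose entering both its strain difference and its glucose response.

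The signal of the receptor transcript itself lay close to the background of the arrays. Lepr probe A_52_P247900 lay between 5.82 and 5.96 in the 19 mice, with group means of 5.91 in B6 low glucose, 5.91 in BLKS low glucose, 5.90 in B6 high glucose and 5.92 in BLKS high glucose. Lepr probe A_51_P396045 lay between 5.78 and 6.04, with means of 5.88, 5.86, 5.92 and 5.93 in the same order. The groups overlapped for both probes in every comparison. In Cy5, A_51_P396045 gave a median signal of 57.5 units over the 20 arrays, where the medians of the 314 negative control spots lay between 50.8 and 58.6 units. Its Cy5 signal exceeded the 97.5 percentile of the negative controls on 4 of 20 arrays, and so did that of A_52_P247900. In Cy3 the signals were somewhat above the control medians of 51.6 to 60.9 units. A_52_P247900 had a Cy3 median of 63.5 units and exceeded the 97.5 percentile on 8 of 20 arrays, and A_51_P396045 had 61.6 units and exceeded it on 3 of 20. Each of these counts was higher than negative control spots alone would give at that percentile. A receptor message at a low level, or in a few cells of the islet, could not be told from other signal near the background. The single probe of Lep, which encodes leptin, did not pass the filter either.

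Leprotl1 carried the clearest differences among the members, and they differed between its 3 probes. In high glucose 2 of its probes were higher in BLKS than in B6 islets and no other member probe was called, so that 2 of the 10 tested probes, both of 1 gene, were called where 11.1% of all tested probes were, 4.98% of them higher in BLKS. Probe A_52_P395220 was at 9.47, 9.44, 9.46, 9.37 and 9.50 in the 5 B6 mice in high glucose. In the 4 BLKS mice in high glucose it was at 9.98, 10.03, 9.90 and 9.87. Every BLKS mouse lay above every B6 mouse, as held for 14.4% of all tested probes in 1 direction or the other. In low glucose the same probe was at 9.24, 9.08, 9.15, 9.40 and 9.17 in the B6 mice, of which the fourth value is that of the library labelled B6 low glucose 4. The BLKS mice in low glucose were at 9.53, 9.44, 9.51, 9.51 and 9.11, the last from the library labelled BLKS low glucose 5. Without these 2 libraries the low glucose groups did not overlap, which then held for 18.0% of all tested probes. The lowest group was thus B6 in low glucose with a mean of 9.21 ± 0.12 (SD, n = 5) and the highest BLKS in high glucose with 9.95 ± 0.07 (SD, n = 4). The groups between them, BLKS in low glucose at 9.42 ± 0.17 (SD, n = 5) and B6 in high glucose at 9.45 ± 0.05 (SD, n = 5), lay within each other's spread.

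**Figure D1:**
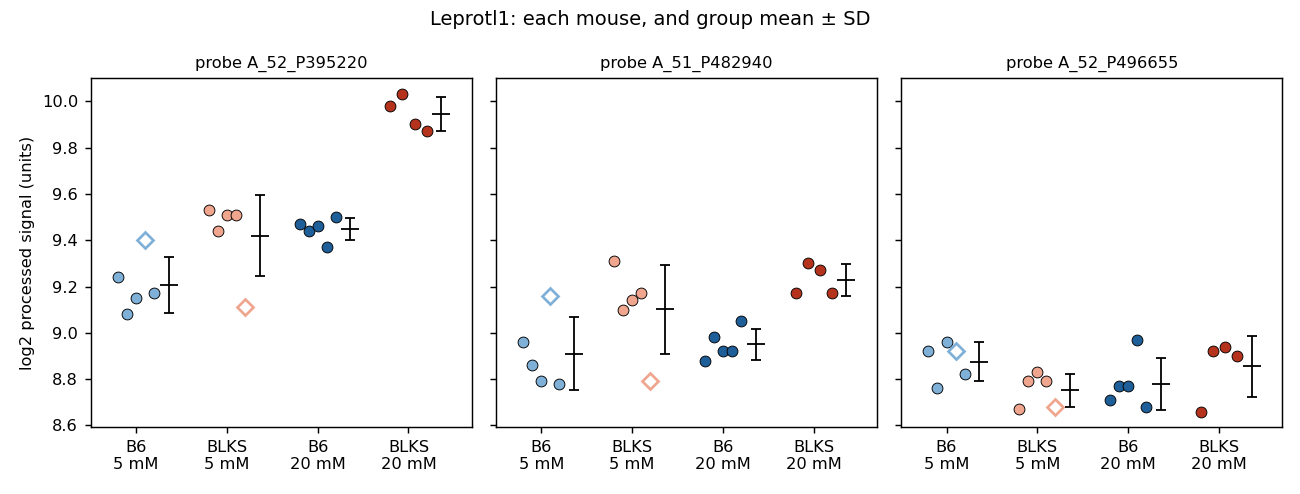
Level of each of the 3 Leprotl1 probes (log2 processed signal, one panel a probe) in each mouse by strain and glucose, with the group mean and SD as bars and the 2 libraries that go against their labels as open diamonds. For A_52_P395220 all 4 BLKS mice in high glucose lie between 9.87 and 10.03, above all other mice.

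The strain difference of A_52_P395220 in high glucose was 0.50 (SE 0.07, 1.41-fold, adjusted p = 0.000964, limma). An exact permutation test over the mice gave a two-sided p of 0.00794, the smallest that 126 ways of dividing them allow. The difference lay between 0.47 and 0.52 in the 19 fits that each left out 1 mouse and was called in all of them. Within the 4 array pairs in high glucose, BLKS exceeded B6 by 0.51, 0.59, 0.45 and 0.50. In low glucose the difference was 0.21 (SE 0.07, adjusted p = 0.166, limma), and none of the 29330 probes was called there, although 4709 had an unadjusted p below 0.05. Without the 2 libraries that go against their labels it was 0.33 (SE 0.04, adjusted p = 3.08e-05, limma), where 15.6% of all tested probes were called. In low glucose the array pairs free of these libraries gave 0.31, 0.35 and 0.35, and the 2 pairs that hold 1 of them gave 0.10 and -0.05. When the array pair entered the fit as a random block, the low glucose difference over all mice was called (0.21, adjusted p = 0.0124, limma), and when it entered as a fixed block it was not (0.21, adjusted p = 0.0517, limma).

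The second probe, A_51_P482940, showed the strain difference at a smaller size. It was at 8.88, 8.98, 8.92, 8.92 and 9.05 in B6 and at 9.17, 9.30, 9.27 and 9.17 in BLKS in high glucose, again without overlap. The difference was 0.28 (SE 0.09, 1.21-fold, adjusted p = 0.0418, limma), with 0.29, 0.32, 0.35 and 0.26 in the array pairs. It stayed between 0.25 and 0.30 when any 1 mouse was left out but was called in only 10 of these 19 fits. The call was lost without any of the 4 BLKS mice in high glucose, without B6 high glucose 1, 2, 3 or 4, and without BLKS low glucose 2. In low glucose it was at 8.96, 8.86, 8.79, 9.16 and 8.78 in B6 and at 9.31, 9.10, 9.14, 9.17 and 8.79 in BLKS. As with the first probe, the highest B6 value and the lowest BLKS value came from the 2 libraries that go against their labels. The difference in low glucose was 0.19 over all mice (adjusted p = 0.244, limma) and 0.33 (SE 0.05, adjusted p = 0.000246, limma) without these libraries. Over all mice it was called when array pairs were a random block (0.19, adjusted p = 0.0246, limma) but not when they were a fixed block (0.19, adjusted p = 0.0575, limma). In the low glucose pairs free of the 2 libraries BLKS exceeded B6 by 0.38, 0.24 and 0.35. In each of the others the mouse labelled BLKS was higher by 0.01.

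The third probe, A_52_P496655, was not called for strain in either medium. Its group means were 8.87 ± 0.08 in B6 and 8.75 ± 0.07 in BLKS in low glucose (SD, n = 5 each), and 8.78 ± 0.11 (SD, n = 5) in B6 and 8.86 ± 0.13 (SD, n = 4) in BLKS in high glucose. In high glucose the difference was 0.08 with a 95% interval from -0.06 to 0.21, and in low glucose -0.12 with an interval from -0.25 to 0.01. The 3 probes bear 1 gene name, and the files used here do not give the stretch of the transcript that each one reads, so their differences cannot be assigned to parts or forms of the message.

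**Figure D2:**
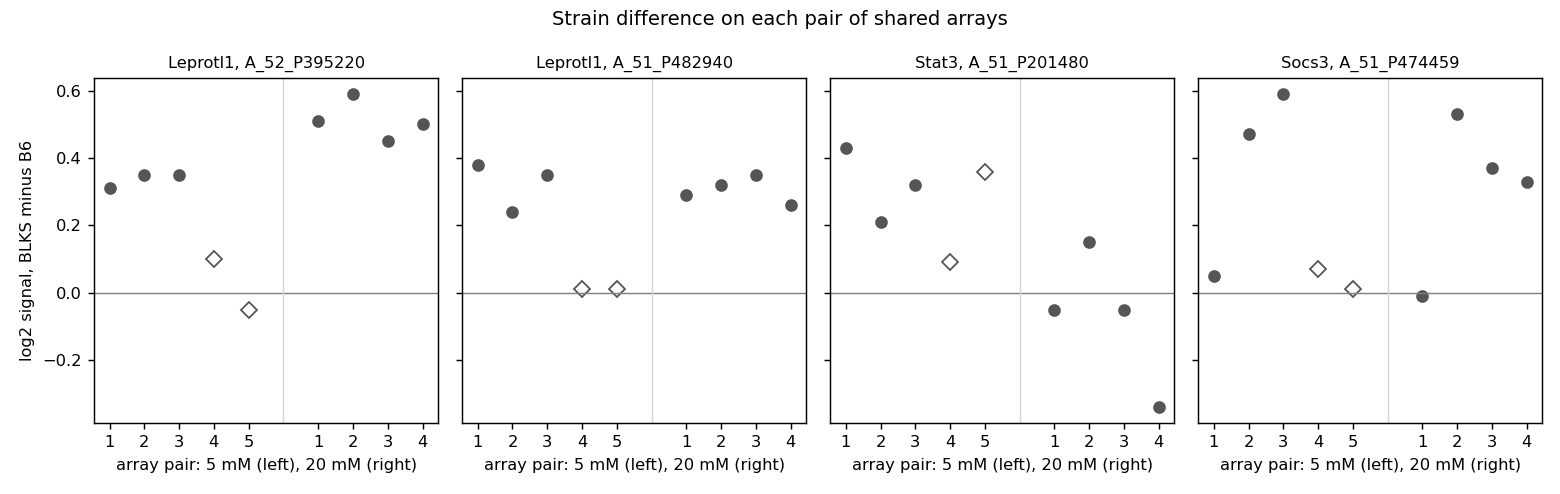
Difference between the BLKS and the B6 mouse of each array pair (log2, BLKS minus B6) in low and high glucose. The panels are Leprotl1 A_52_P395220, Leprotl1 A_51_P482940, Stat3 A_51_P201480 and Socs3, and the third Leprotl1 probe, A_52_P496655, is not drawn. Open diamonds are the 2 low glucose pairs that hold a library that goes against its label; for Leprotl1 A_52_P395220 the other 7 pairs lie between 0.31 and 0.59.

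High glucose raised Leprotl1 in both strains by probe A_52_P395220 alone. In B6 the rise was 0.24 (SE 0.07, 1.18-fold, adjusted p = 0.038, limma), the one call among the 10 probes where 9.53% of all tested probes were called. In BLKS it was 0.53 (SE 0.07, 1.44-fold, adjusted p = 0.000158, limma), 1 of 2 calls where 11.6% of all probes were called. In B6 the groups overlapped through the library labelled B6 low glucose 4, and the exact permutation p was 0.0159. Without the 2 libraries the rise was 0.29 in B6 (adjusted p = 0.000171, limma), where 12.2% of all tested probes were called, and 0.45 in BLKS (adjusted p = 9.67e-06, limma), where 9.9% were. The groups of neither strain then overlapped, as held for 11.7% of all probes in B6 and 15.5% in BLKS. The B6 call over all mice was lost in 7 of the 19 fits that left out 1 mouse, those without B6 high glucose 1, 2, 3 or 5 or without B6 low glucose 2, 3 or 5, with values from 0.21 to 0.24. It was also lost without the arrays scanned later (0.23, adjusted p = 0.0745, limma), when array pairs were a random block (0.24, adjusted p = 0.0603, limma), and in the authors' own table of log2 values (0.13, adjusted p = 0.549, limma).

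The response of A_52_P395220 was larger in BLKS than in B6 by 0.29 (SE 0.10, 95% interval from 0.07 to 0.50), which did not pass the test over all probes (unadjusted p = 0.011, adjusted p = 0.896, limma). Without the 2 libraries the difference between the responses was 0.16 (adjusted p = 0.685, limma). By this test 0.0409% of all probes were called and none of the member probes was, 3 of which had an unadjusted p below 0.05. Responses of the other Leprotl1 probes were not called. For A_51_P482940 they were 0.04 in B6 and 0.13 in BLKS, and for A_52_P496655 -0.10 and 0.10.

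Leprot, the relative of Leprotl1 that lies beside Lepr on chromosome 4, did not differ detectably between the strains and was slightly higher in high glucose. Its probe A_51_P394690 was at 8.51, 8.17, 8.47, 8.21 and 8.20 in B6 and at 8.32, 8.18, 8.33, 8.25 and 8.25 in BLKS in low glucose. In high glucose it was at 8.50, 8.36, 8.40, 8.48 and 8.39 in B6 and at 8.40, 8.38, 8.43 and 8.40 in BLKS. The BLKS groups did not overlap, as held for 13.3% of all tested probes, and the B6 groups did, since 2 B6 mice in low glucose were as high as those in high glucose. Over both strains the rise was 0.13 (SE 0.04, adjusted p = 0.0407, limma), 1 of 2 member calls where 22.3% of all tested probes were called, the other being Leprotl1 A_52_P395220 at 0.38 (SE 0.05, adjusted p = 2.6e-05, limma). The call for Leprot held in 6 of 19 fits that left out 1 mouse, with values from 0.11 to 0.15, and without scaling between arrays the rise was 0.06. It was lost without the 2 libraries (0.11, adjusted p = 0.0928, limma). Within one strain the rise was not called, at 0.11 in B6 (adjusted p = 0.282, limma) and 0.14 in BLKS (adjusted p = 0.171, limma). The strain difference in high glucose was -0.02, with a 95% interval from -0.15 to 0.11.

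Jak2, the kinase bound to the receptor, was not called in any comparison. Probe A_51_P483231 had group means of 7.50 ± 0.10 in B6 and 7.39 ± 0.05 in BLKS in low glucose (SD, n = 5 each), and of 7.47 ± 0.10 (SD, n = 5) and 7.46 ± 0.09 (SD, n = 4) in high glucose. Its differences over the 6 comparisons lay between -0.11 and 0.10. The strain difference in high glucose had a 95% interval from -0.13 to 0.10 and the glucose response in BLKS one from -0.05 to 0.19. The second Jak2 probe, A_52_P309376, exceeded the 97.5 percentile of the negative controls on 8 of 20 arrays in Cy5 and on 10 of 20 in Cy3. It was not tested.

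Stat3, the transcription factor downstream of JAK2, fell in BLKS islets in high glucose by 1 of its 2 probes. Probe A_51_P201480 was at 10.23, 9.86, 10.09, 10.04 and 10.02 in the BLKS mice in low glucose and at 9.88, 9.82, 9.73 and 9.41 in high glucose. The groups overlapped by 1 low glucose mouse at 9.86 and 1 high glucose mouse at 9.88. The difference was -0.34 (SE 0.09, 1.26-fold, adjusted p = 0.0243, limma; exact permutation p = 0.0238). Leaving out BLKS high glucose 4, the lowest mouse, gave -0.24 (adjusted p = 0.107, limma), and leaving out BLKS low glucose 1, the highest, gave -0.29 (adjusted p = 0.064, limma). It was called in the other 17 fits that left out 1 mouse, and without the 2 libraries that go against their labels it was -0.34 (adjusted p = 0.0309, limma).

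In B6 the same Stat3 probe was at 9.85, 9.65, 9.77, 9.96 and 9.65 in low glucose and at 9.93, 9.67, 9.78, 9.75 and 9.98 in high glucose. These groups overlapped throughout, and the difference was 0.04 (adjusted p = 0.843, limma). The BLKS response was below that of B6 by 0.38 (SE 0.13, unadjusted p = 0.00843), which did not pass the test over all probes (adjusted p = 0.853, limma). Between the strains in low glucose, Stat3 was higher in BLKS by 0.27 (SE 0.09), not called over all mice (adjusted p = 0.161, limma). It was called without the 2 libraries that go against their labels (0.32, adjusted p = 0.0302, limma), and when array pairs were a random block (0.27, adjusted p = 0.00982, limma) or a fixed block (0.27, adjusted p = 0.0389, limma). Both block fits kept these libraries under their labels. In the low glucose pairs free of them BLKS exceeded B6 by 0.43, 0.21 and 0.32. The mouse labelled BLKS was also higher in the 2 pairs that hold 1 of them, by 0.09 and 0.36. The library labelled B6 low glucose 4, at 9.96, lay with BLKS for this probe. The library labelled BLKS low glucose 5, at 10.02, did not lie with B6 here but within the range of the other BLKS mice. In high glucose the strain difference was -0.11, not called, and BLKS was the higher mouse in 1 of 4 pairs. The dimmer Stat3 probe, A_52_P569499, had group means between 6.80 and 6.86 and differences between -0.08 and 0.05, none called.

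**Figure D3:**
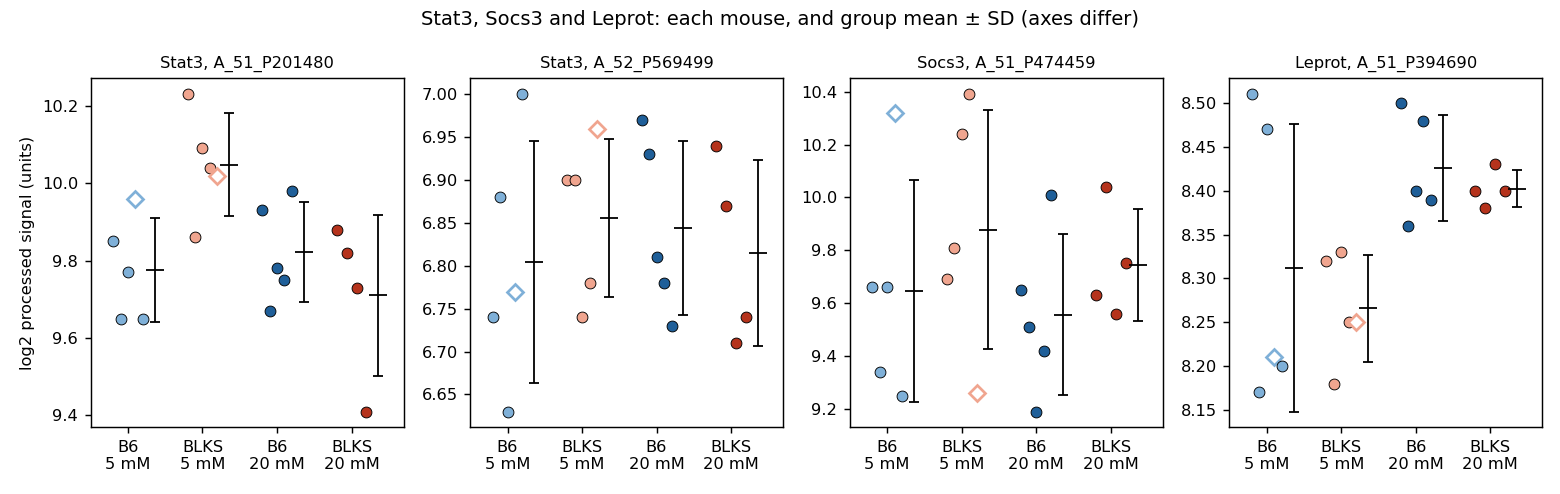
Level of the 2 Stat3 probes, Socs3 and Leprot (log2 processed signal, axes differ between panels) in each mouse by strain and glucose, with the group mean and SD as bars and the 2 libraries that go against their labels as open diamonds. Stat3 A_51_P201480 falls from a mean of 10.05 in BLKS low glucose to 9.71 in BLKS high glucose, and Socs3 spreads over about 1 log2 unit within the low glucose groups.

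Socs3 is the feedback inhibitor that STAT3 induces, and STAT factors bind DNA at the palindrome TTCNNNGAA. The Socs3 promoter is shown because, of the 7 promoters that RefSeq lists for 6 of the members (Leprotl1 has none in the table), it is the 1 with this motif in the 250 bases before the start. Over all genes 7.02% of 32851 promoters hold it there. The motif reads the same on both strands, and the match is a description of these letters, not of a bound site. The stretch is chr11:117969367-117969616 in GRCm38.p6, on the minus strand, printed 5′ to 3′ with the match, TTCTTAGAA, in capitals.
Socs3: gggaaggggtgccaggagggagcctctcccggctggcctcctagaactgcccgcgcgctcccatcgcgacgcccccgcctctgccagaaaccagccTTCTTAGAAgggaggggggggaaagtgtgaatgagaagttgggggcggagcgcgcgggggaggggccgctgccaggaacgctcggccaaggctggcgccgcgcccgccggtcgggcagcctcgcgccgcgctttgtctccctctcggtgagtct
The match lies from 154 to 146 bases before the start.

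In low glucose Socs3 varied more between mice of 1 group than any other member probe. Its probe A_51_P474459 was at 9.66, 9.34, 9.66, 10.32 and 9.25 in B6 and at 9.69, 9.81, 10.24, 10.39 and 9.26 in BLKS there. The highest B6 value and the lowest BLKS value again came from the 2 libraries that go against their labels. Without these the groups did not overlap, as then held for 18.0% of all tested probes. In high glucose Socs3 was at 9.65, 9.51, 9.19, 9.42 and 10.01 in B6 and at 9.63, 10.04, 9.56 and 9.75 in BLKS, with overlap. The strain difference in low glucose was 0.23 (SE 0.21, adjusted p = 0.710, limma) over all mice and 0.56 (SE 0.17, adjusted p = 0.0352, limma; exact permutation p = 0.0286, the smallest that 70 ways allow) without the 2 libraries. It was not called when only 1 of these libraries was left out, nor with either block. In the 3 low glucose pairs free of them the difference was 0.05, 0.47 and 0.59, and in the high glucose pairs -0.01, 0.53, 0.37 and 0.33. The strain difference in high glucose was 0.19 and the responses to glucose were -0.09 in B6 and -0.13 in BLKS, none of them called.

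Ptpn1, the phosphatase that acts on JAK2, was not called by either probe in any comparison. Probe A_51_P241705 had group means between 10.61 and 10.77 and differences between -0.16 and 0.05, with the lowest adjusted p at 0.186 (limma). Probe A_52_P516021 had means between 8.29 and 8.38 and differences between -0.08 and 0.05. Thus without the 2 libraries 4 of the 10 tested member probes were called for strain in low glucose, where 15.6% of all probes were. All 4 were higher in BLKS, a direction in which 7.05% of all probes were called. They were Stat3 A_51_P201480, Socs3 and both Leprotl1 probes named above, which bear the same gene name.

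**Figure D4:**
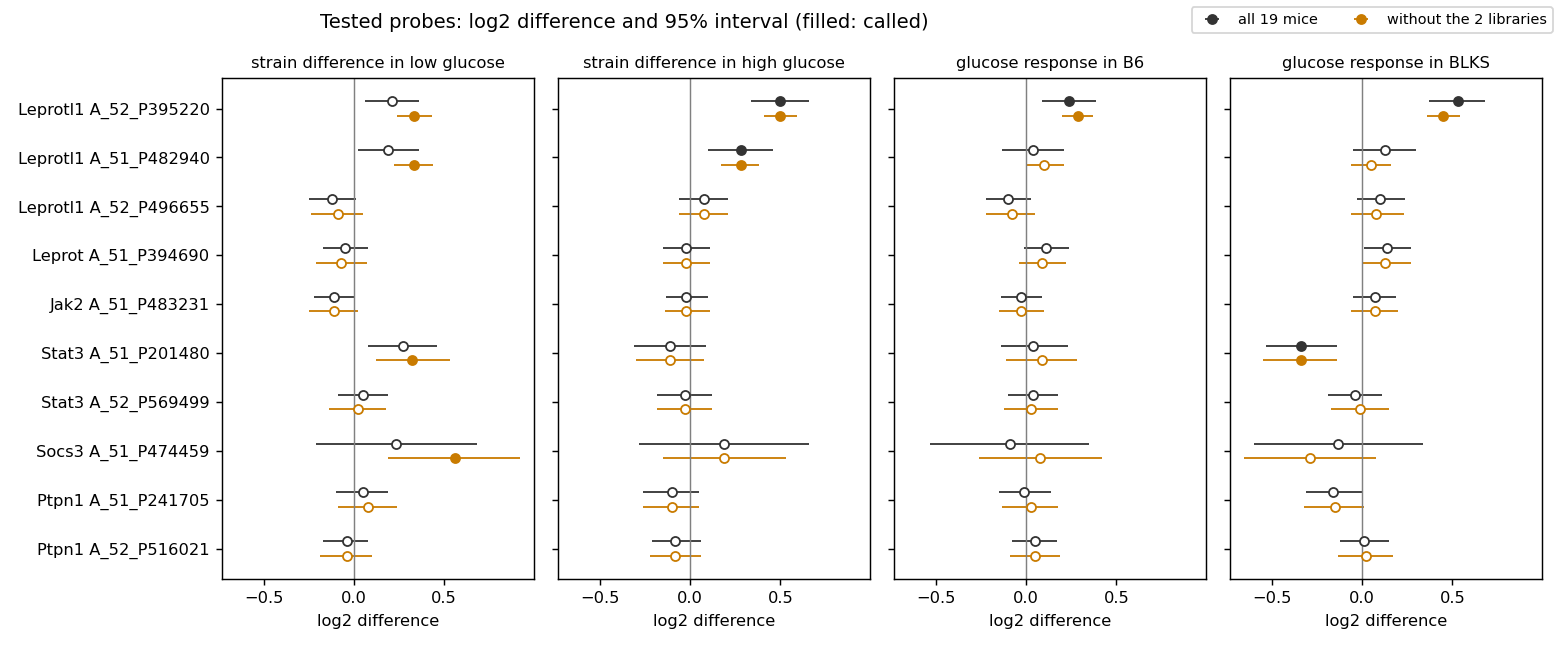
Difference of each of the 10 tested member probes (log2, point) with its 95% interval (line) in 4 comparisons, over all 19 mice in black and without the 2 libraries that go against their labels in orange, filled where called. Calls over all mice are those of Leprotl1 for strain in high glucose and for glucose in both strains, and that of Stat3 for glucose in BLKS; the orange points add 4 calls for strain in low glucose.

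Of 77 further genes of the pathway, read by the brightest tested probe of each, 69 were tested. In high glucose 13 of the 69 differed between the strains, 2 higher and 11 lower in BLKS, which is 18.8% where 11.9% of all 21537 genes so read were called. Their median difference was -0.02, beside 0.005 over all genes. The largest were Timp1 at -0.99 (SE 0.23, adjusted p = 0.00996, limma), an inhibitor of matrix proteases, and Ccnd1 at -0.64 (adjusted p = 0.0105, limma), which encodes cyclin D1. Il11ra1, the interleukin 11 receptor, was higher in BLKS by 0.53 (adjusted p = 0.00292, limma). Of the 6 adaptor genes tested, 2 were lower in BLKS, Ptpn11 (SHP2) at -0.42 and Shc1 at -0.29. The Janus kinase gene Jak1 was lower by 0.23 on the log2 scale, at -0.23 (adjusted p = 0.0142, limma). None of the 5 other STAT genes tested was called.

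Markers of other cell types moved with the strain in high glucose too. Of 6 mesenchyme markers, 4 (Col1a1, Col1a2, Col3a1 and Lum) were lower in BLKS, and the summed level of the 6 was 10.46 to 11.61 in BLKS and 11.67 to 12.74 in B6. The mesothelial marker Msln was lower by a log2 difference of -2.14, at 7.83 to 8.63 in BLKS and 10.25 to 10.66 in B6. The endothelial markers Kdr and Cdh5, 2 of 6 tested, were lower, with a summed level of 10.23 to 10.40 in BLKS and 10.43 to 10.66 in B6. The neutrophil marker S100a9 was higher by 1.72, at 7.75 to 9.08 in BLKS and 6.01 to 7.96 in B6, while Ngp and S100a8 were not well above background. The acinar marker Cela1, 1 of 6 tested, and the duct marker Krt19, 1 of 4, were higher in BLKS. Their lists summed to 10.87 to 11.16 (acinar) and 13.62 to 13.89 (duct) in BLKS and to 10.79 to 10.94 and 13.73 to 13.84 in B6. Of 5 beta cell markers, Slc2a2 was lower in BLKS, with a summed level of 17.43 to 17.65 against 17.52 to 17.82. None of 5 macrophage markers was called. The part of these cells in the strain differences of Leprotl1, Timp1 and the other genes was not tested.

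Over all mice 6 genes of the list were called for glucose in both strains, Lifr, Prlr, Ghr, Stat5b, Cish and Hras, each the same way in both. In the fit without the libraries that go against their labels Prlr was not called in B6 (0.15, adjusted p = 0.111, limma) nor Ghr in BLKS (-0.21, adjusted p = 0.0917, limma), and the other 4 kept both calls. The receptor gene Lifr, for leukemia inhibitory factor, rose by 0.76 in B6 (SE 0.07, adjusted p = 6.18e-06, limma), from 7.68 ± 0.11 to 8.44 ± 0.13 (SD, n = 5 each). In BLKS it rose by 0.54 (adjusted p = 0.000211, limma), from 7.52 ± 0.16 (SD, n = 5) to 8.06 ± 0.08 (SD, n = 4). These rises were 0.72 and 0.58 without the 2 libraries. Of its 4 tested probes, 1 was called in B6 and 2 in BLKS. Over all mice the prolactin receptor gene Prlr was at 0.18 in B6 (adjusted p = 0.0481, limma) and 0.24 in BLKS (adjusted p = 0.0146, limma). The growth hormone receptor gene Ghr was at -0.31 in B6 (adjusted p = 0.00692, limma) and -0.23 in BLKS (adjusted p = 0.0487, limma). The Ras gene Hras rose by 0.21 in each strain, and by 0.24 in B6 and 0.18 in BLKS without the 2 libraries.

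Stat5b, which acts downstream of the prolactin and growth hormone receptors, changed by -0.36 in B6 (adjusted p = 0.00107, limma) and -0.34 in BLKS (adjusted p = 0.00254, limma), by 1 of its 2 tested probes. Its changes were -0.40 and -0.31 without the 2 libraries. Its neighbour Stat5a changed by -0.27 in B6 (adjusted p = 0.00934, limma). The STAT5-induced inhibitor gene Cish changed by -0.20 in B6 and -0.25 in BLKS, and Socs2 by -0.32 in BLKS (adjusted p = 0.0256, limma). In all, 10 of 69 genes were called in B6 (14.5%, where 10.3% of all genes were) and 12 in BLKS (17.4%, where 12.2% were), with medians of 0.00 and -0.03 beside -0.007 and -0.008 over all genes. With the 2 libraries left out, 17 of 69 were called in B6, 11 higher and 6 lower, where 12.2% of all tested probes were called, and 11 in BLKS, 3 higher and 8 lower, where 9.9% were. These last shares are over probes and not over genes. Over all mice the shares of probes were 9.53% in B6 and 11.6% in BLKS, below those of genes. Of the targets of STAT3, 2 of 22 were called in B6 over all mice, 1 higher and 1 lower. In the fit that left these libraries out the lower one was not called, and 7 were, all higher. They were Lcn2 at 1.74, Lrg1 at 1.47, Fgg at 0.94, Fos at 0.81, Timp1 at 0.74, Bcl3 at 0.59 and Cebpb at 0.31. No gene of the list was called for a difference between the responses in either fit. Among the markers, 2 of 6 mesenchyme genes (Dcn and Lum) were higher in B6 in high glucose, with a summed level of 11.05 to 11.91 in low and 11.67 to 12.74 in high glucose. Also in B6 the endothelial gene Kdr and the acinar gene Ctrb1, 1 of 6 each, were lower, with summed levels from 10.66 to 10.98 down to 10.43 to 10.66 (endothelial) and from 10.95 to 11.29 down to 10.79 to 10.94 (acinar). In BLKS the neutrophil marker S100a9 was higher by 2.14, at 5.95 to 6.76 in low and 7.75 to 9.08 in high glucose, and the beta cell marker Slc2a2, 2 of 6 endothelial genes (Kdr and Cdh5) and 2 of 6 acinar genes (Cel and Ctrb1) were lower. These marker calls are over all mice. Without the 2 libraries Kdr and Cel were no longer called in BLKS, and Slc2a2 was also called lower in B6. The other marker calls within each strain were kept. The part of these cells in the responses was not tested.

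Genes known as targets of STAT3, 22 of them tested, were not called for strain in low glucose over all mice. Without the 2 libraries that go against their labels 8 of 22 were called, 7 higher and 1 lower in BLKS. Over the whole pathway list 20 of 69 genes were then called, 13 higher and 7 lower. These included 4 of 8 receptors of the same class as the leptin receptor and 2 of 3 other Janus kinases. Of the genes of PI3-kinase, Akt and Foxo1, 3 of 9 were called, and of the 5 other STAT genes and 6 adaptors none. In that fit 15.6% of all tested probes were called, a share over probes and not over genes read by their brightest probe. Lcn2, the iron-trapping acute phase protein lipocalin 2, was higher in BLKS by 1.91 (SE 0.35, adjusted p = 0.000888, limma), with 8.48 ± 0.36 in BLKS and 6.57 ± 0.35 in B6 (SD, n = 4 each). The level was 8.71 in the library labelled B6 low glucose 4, and 6.32 in the library labelled BLKS low glucose 5, so each lay with the other strain, and over all mice the difference was 1.05 (adjusted p = 0.312, limma). The fibrinogen chain gene Fgg was higher by 1.54 and the early response gene Fos by 1.15. Cebpd, Cebpb and Bcl3, which encode transcription regulators of the acute phase and NF-kB, were higher by 1.23, 0.71 and 0.75, and Pim3 by 0.27. Ccnd1 was the 1 lower target, at -0.61 (adjusted p = 7.64e-08, limma). Outside the targets, the receptor gene Cntfr was higher in BLKS by 0.71 (SE 0.08, adjusted p = 5.91e-06, limma). Over all mice its difference was 0.40 (adjusted p = 0.228, limma). Of the markers, Msln was lower in BLKS in this comparison, at 8.19 to 9.02 against 10.61 to 11.17 in B6, and 3 of 6 endothelial genes were lower, their summed level being 10.46 to 10.65 against 10.66 to 10.98. The macrophage gene Cd14 (1 of 5 tested), the acinar gene Cela1 (1 of 6) and the duct genes Krt19 and Sox9 (2 of 4) were higher in BLKS. Their lists summed to 9.81 to 9.88 (macrophage), 11.15 to 11.43 (acinar) and 13.56 to 13.72 (duct) in BLKS. In B6 these sums were 9.66 to 9.99, 10.95 to 11.26 and 13.57 to 13.78. S100a9 and the mesenchyme genes were not called. The part of these cells was not tested here either.

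In high glucose the 7 targets that were higher in BLKS in low glucose were not called for strain over all mice. Their differences were 1.03 for Lcn2, 0.41 for Fgg, 0.33 for Fos, -0.14 for Cebpd, 0.15 for Cebpb, -0.10 for Bcl3 and 0.20 for Pim3. Without the 2 libraries, which changes only the shared spread here, Lcn2 and Pim3 passed (adjusted p = 0.0445 and 0.0275, limma). Over both strains high glucose raised Lcn2 by 1.30 (SE 0.37, adjusted p = 0.0153, limma), Lrg1, another acute phase gene, by 1.21 (adjusted p = 0.00832, limma) and the fibrinogen gene Fgb by 0.73 (adjusted p = 0.0458, limma). When the 2 libraries were left out, Lcn2 was at 1.29 and Lrg1 at 1.24, both called, and Fgb at 0.71, not called (adjusted p = 0.0739, limma). Socs3, a target itself, was not called for glucose in either strain. In the 250 bases before the start, 5 of the 23 promoters of the listed targets, tested or not, held TTCNNNGAA. This is 21.7%, where 7.02% of all 32851 promoters did, and binding of STAT3 was not tested.

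**Figure D5:**
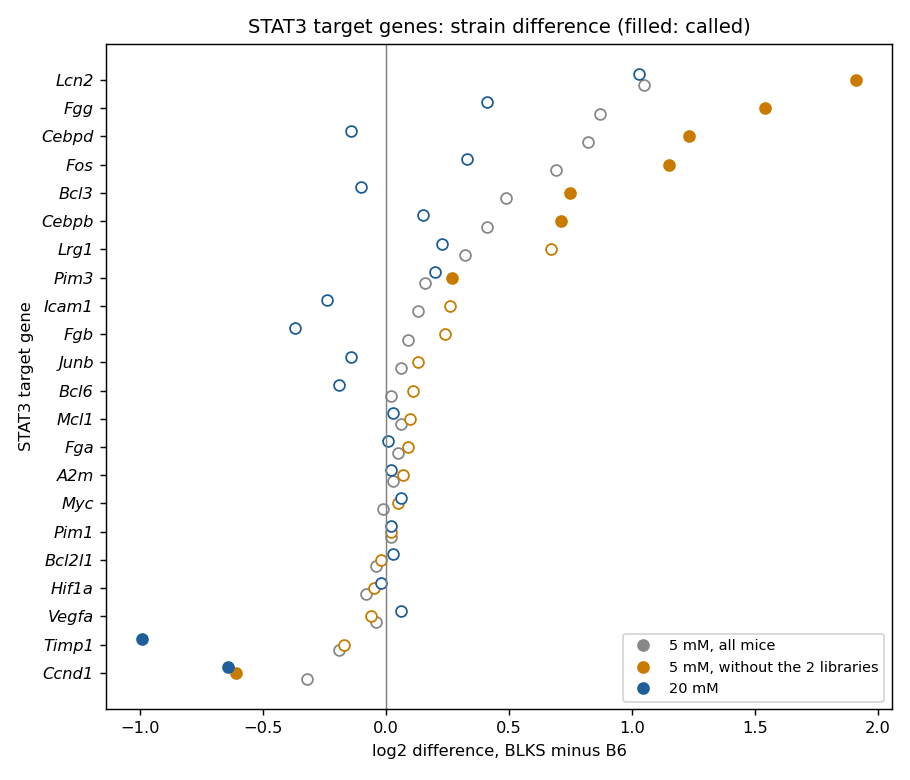
Strain difference (log2, BLKS minus B6) of each of the 22 tested STAT3 targets in low glucose over all mice, in low glucose without the 2 libraries that go against their labels, and in high glucose, filled where called. Without the 2 libraries Lcn2 reaches 1.91 and Fgg 1.54 in low glucose, and Ccnd1 lies at -0.61.

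The probes whose levels ran most like Leprotl1 A_52_P395220 over the 19 mice were those of Pla2g12a (Pearson r = 0.977), a secreted phospholipase, Nudt5 (r = 0.976), a hydrolase of ADP-ribose, and Stc2 (r = 0.972), a secreted glycoprotein. After the group means were taken out, r was 0.872, 0.898 and 0.883. Their strain differences in high glucose were 0.64, 0.33 and 1.03. The mice share arrays in pairs and the 2 libraries that go against their labels add to these values, which are a description. For Lepr A_52_P247900, at the level of the background, the highest were Tdh (r = 0.834), Gpr155 (r = 0.781) and the gene listed as 9330128H10Rik (r = 0.684).

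Beside Leprotl1 on chromosome 8, Saraf, a regulator of calcium entry, was also higher in BLKS in high glucose, by 0.20 (adjusted p = 0.0357, limma), and rose with glucose by 0.45 in B6 (adjusted p = 5.4e-05, limma) and 0.51 in BLKS (adjusted p = 2.6e-05, limma). None of the other 5 neighbours read (Dctn6, Rbpms, Gtf2e2, Dusp4 and Tnks) was called in these comparisons. Over all 7 members 37 neighbouring genes were tested, among them the member Leprot, which lies beside Lepr. Of the 37, 7 were called for strain in high glucose, 5 for glucose in B6, 6 in BLKS and 13, with Leprot, over both strains. The shares of all genes so read were 11.9%, 10.3%, 12.2% and 23.5%. Near Lepr and Leprot, Pde4b, a phosphodiesterase of cyclic AMP, was lower in BLKS in high glucose, at -0.38 (adjusted p = 0.0133, limma). Near Ptpn1 none of 6 neighbours was called.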

How the data were processed

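Islet RNA of 19 mice was measured on 20 2-colour arrays. The deposited intensity values came from Agilent Feature Extraction, version 9.5.3.1 per the file headers and 8.1 in the submitters' processing notes, with linear and LOWESS normalization between dyes and no background subtraction. The authors also deposited a table of log2 values, 1 column per mouse, which matched log2 mean signal averaged over dyes without scaling between arrays; it was used as an alternative. The genome build behind the probe names is not given in the sources used here.

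Outlier spots (12 to 38 per array and dye) were left out. Log2 processed signals were scaled between arrays (Aquantile), then averaged over the spots of a probe and over both dyes of a mouse. The mouse hybridised on 4 arrays, B6 low glucose 1, was counted as 1 mouse, whereas the series text counts 6 such B6 mice. Probes well above background in all channels of at least 4 mice were kept (29330 of 41174). Of the negative control spots, a median of 83.9% had this call in Cy3 and 0.318% in Cy5, so the filter rests largely on Cy5. Limma 3.58.1 in R 4.3.3 fitted 4 group means with Benjamini-Hochberg adjustment at 0.05, and was tested on simulated data. Exact permutation tests ran over mice. Figures were drawn with matplotlib 3.10.9. The number of arrays limits the precision.

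Mice of an array pair deviated together from the means of their labelled groups, with a median correlation of 0.48 (0.02 to 0.69) beside -0.0058 for other mice. The pairing comes from the shared arrays. High glucose pairs gave 0.69, 0.37, 0.48 and 0.58. Of the low glucose pairs, those that hold a library that goes against its label gave 0.60 and 0.66, and the others 0.12, 0.19 and 0.02. The random block was fitted over all these pairs. Named genes were all member probes, at most 8 called genes of the pathway list per comparison, the 3 probes most like Lepr and Leprotl1, and 3 RefSeq neighbours either side of a member. Where fits without the 2 libraries that go against their labels were made, genes were taken from the pathway list by the same rule. In those fits all called targets of STAT3 were also named for strain in low glucose and for glucose in B6. Others were named by role. The members and lists were chosen with earlier results of these data known. RefSeq symbols matched 24096 of the tested probes. Alternatives covered scaling, filter, background correction, dye, the authors' table, the methods' linear model, blocks and each mouse left out. Some genes of the lists are not reported here by name.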

Additional observations from a re-analysis of the deposited data

Results flagged for a closer look

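Of 52 groups of member levels checked for 1 mouse far from the rest, 4 stood out, and chance alone gives about 1 group in 20. For Leprotl1 A_52_P395220 the library labelled BLKS low glucose 5 was at 9.11, where the other BLKS low glucose mice lay between 9.44 and 9.53; this is 1 of the 2 libraries that go against their labels. For Leprotl1 A_52_P496655 mouse BLKS high glucose 1 was at 8.66, where the others lay between 8.90 and 8.94. The remaining flags fell on Lepr A_51_P396045, which is at the level of the background. The library labelled BLKS low glucose 5 was at 5.78 there, with the others between 5.86 and 5.88, and B6 high glucose 5 was at 6.04, with the others between 5.86 and 5.91.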

How the results depend on the processing

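Each count of called member probes was recomputed under 34 alternatives, 19 of which leave out 1 mouse. For strain in high glucose the count of 2 became 1 without scaling between arrays, without the filter, in the authors' table and in Cy5 alone, and it was 1 to 2 without any 1 mouse. For strain in low glucose the count of 0 became 5 in the methods' linear model, fitted to single dye values, which treats the dyes of a mouse as separate values, and 4 without both libraries that go against their labels. It was 0 to 3 without any 1 mouse. The library labelled B6 low glucose 4 left out alone gave 3, and the library labelled BLKS low glucose 5 left out alone gave 2. With the array pair as a replicate block the low glucose count was 1 (fixed block) and 3 (random block).

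For glucose in B6 the count of 1 became 0 without scaling, without the filter, in the authors' table, in Cy5 alone, without the arrays scanned later and with the random block of array pairs, and it was 0 to 1 without any 1 mouse. For glucose in BLKS the count of 2 became 1 in the authors' table, 1 in Cy3 alone and 4 in the methods' model, and was 1 to 2 without any 1 mouse. Over both strains the count of 2 became 1 without scaling, without the filter, in the authors' table, in Cy5 alone, with the arrays of B6 low glucose 1 counted as 2 mice, with the random block and without both libraries, and was 1 to 2 without any 1 mouse. For the difference between the responses the count of 0 became 1 in the methods' model and was 0 without any 1 mouse. The cause was not tested.

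Of 14 member values followed one by one through these alternatives, 404 recomputed values kept direction and call, 50 lost the call, 17 gained it and 0 turned direction. Of 46 other uncalled member values, 96 of 1539 recomputed values had the other sign, the largest of size 0.09. The block changed no other member call than those given here and beside the results. Without scaling, glucose over both strains was called higher for 1410 probes and lower for 3797, against 3176 and 3366 with scaling. Both Lepr probes and 1 Jak2 probe lay near the negative controls, so their changes could not be measured.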
